A study of Mus musculus with 4 samples.

Results

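The 8 genes described here encode the transporters, receptors and scaffold of glycine signalling: the plasma membrane glycine transporters Slc6a5 and Slc6a9, the glycine receptor alpha subunits Glra1, Glra2, Glra3 and Glra4, the beta subunit Glrb, and gephyrin, Gphn. They were chosen by name, and all 8 were found by Ensembl identifier among the 55414 rows of the count table and passed the filter on low counts, which left 21592 genes tested. The study compared bulk messenger RNA of 2 Stra8 knockout (KO) libraries with that of 2 wild-type (WT) libraries from mice that all carried a green fluorescent reporter driven from the Stra8 promoter, and its design text has the reporter-positive cells taken from hippocampi by flow sorting. The sample labels give the tissue only as brain. Age, sex, strain, the number of animals pooled in a library and the allele of the knockout are not stated in the labels, and nothing ties the 2 libraries of a genotype to different animals, so p-values measure the spread between these libraries, which may be technical.

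Glycine is the main fast inhibitory transmitter of brainstem and spinal cord, beside GABA. Neurons that release it take it up again through SLC6A5, while SLC6A9 on glia and on some glutamatergic neurons clears it around synapses and also sets how much glycine reaches NMDA receptors as a co-agonist. The receptor is a pentameric chloride channel. Alpha subunits bind glycine, and the beta subunit ties the channel to gephyrin, the scaffold under inhibitory synapses, which holds GABA-A receptors as well. In hippocampus, Glra2 and Glra3 are known from receptors outside synapses, whereas Slc6a5 is known from glycinergic neurons of brainstem, spinal cord and cerebellum.

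Slc6a5 was the gene of the set that changed most. The sequences around its 2 RefSeq starts are shown because its messenger RNA carries the main result. Each window is 300 bases on the plus strand, from 250 bases before to 50 after a start, in RefSeq's GRCm38.p6 coordinates, an older build than the GRCm39 of the counts. Capitals mark CANNTG, the E-box read by basic helix-loop-helix factors.
Slc6a5 first start, chr7:49910049-49910348: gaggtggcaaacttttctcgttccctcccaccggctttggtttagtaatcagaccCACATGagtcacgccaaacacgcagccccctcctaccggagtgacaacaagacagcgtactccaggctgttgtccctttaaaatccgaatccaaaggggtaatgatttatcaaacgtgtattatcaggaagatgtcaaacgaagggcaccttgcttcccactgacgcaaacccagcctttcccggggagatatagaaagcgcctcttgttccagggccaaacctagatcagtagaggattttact
Slc6a5 second start, chr7:49911450-49911749: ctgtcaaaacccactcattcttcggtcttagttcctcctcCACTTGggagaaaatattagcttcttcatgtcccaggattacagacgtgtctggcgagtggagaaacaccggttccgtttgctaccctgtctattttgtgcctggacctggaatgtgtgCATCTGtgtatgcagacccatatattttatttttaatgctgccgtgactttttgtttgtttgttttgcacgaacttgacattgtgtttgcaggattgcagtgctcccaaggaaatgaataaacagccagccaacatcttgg

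Searched on both strands, the first window held 1 CANNTG and the second 2, and 72.3% of all 32851 promoter windows of this length hold at least 1. The first window also held 1 TGANTCA, the AP-1 type motif, which shares 2 bases with the E-box, and 7.81% of all windows hold one. AGGTCA, the half-site of retinoic acid and related nuclear receptors, was in neither window, against 16.3% of all windows. Windows were found for 7 of the 8 genes, all except Glra1, and 5 of the 10 windows of the set held CANNTG. The windows of Glra2, Glra4 and Gphn held none of these 3 motifs. These matches describe letters and say nothing of binding.

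Total counts were between 71097417 and 82172740 per library, and 28356 to 28801 genes were detected. Stra8 itself had 7 and 4 reads in the KO libraries and 5 and 1 in the WT libraries, so its counts do not check the genotype labels at this depth. Neuronal, astrocyte and hippocampal markers were present in every library. Beside them stood markers of other regions: the 18 Hox genes of hindbrain and spinal cord summed to 1.58 and 1.79 CPM (reads scaled to the library total) in KO libraries and to 3.68 and 3.99 CPM in WT libraries, with Hoxb1, Hoxb7 and Hoxc6 at 0 reads in all 4. Cerebellar and anterior pituitary markers were also present. These lists were picked to mark regions other than the hippocampus that the design text names. Single genes of them, such as Neurod1 in the cerebellar list, may also be transcribed in hippocampus, which was not tested.

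Among the 8 genes, Slc6a5 fell and Glra2 rose in KO libraries, and the other 6 did not pass the test (quasi-likelihood test in edgeR, p adjusted by Benjamini-Hochberg over all genes tested, threshold 0.05). Over all tested genes 3.19% were called lower and 3.35% higher, or 6.53% in either direction, and the median log2 fold change was -0.00038. The KO and WT libraries did not overlap for Slc6a5, Glra1 and Glra2, that is for 3 of 8 genes, against 45.7% of all tested genes. Fold changes are given as KO over WT throughout. In CPM, with totals adjusted by TMM, the values of the set reached from 0.317 for Glra4 in a WT library to 166 for Glrb in a KO library.

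**Figure D1:**
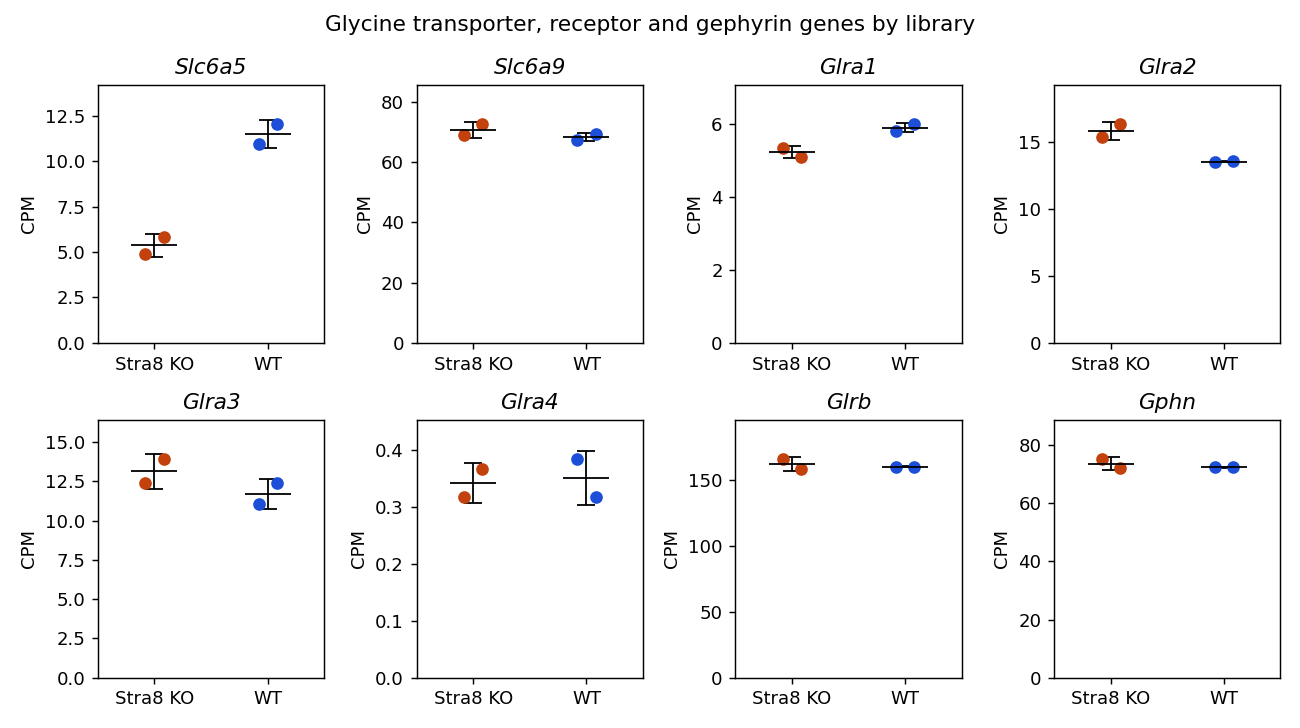
Normalised read counts (CPM, linear axes from 0) of the 8 genes, with 1 point per library, Stra8 KO at left and WT at right in each panel, and the mean with its SD in black (n = 2 libraries). Slc6a5 sits at 4.91 and 5.83 CPM in KO libraries, below 11.0 and 12.0 CPM in WT libraries, while the points of Slc6a9, Glra3, Glra4, Glrb and Gphn overlap between genotypes.

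Slc6a5 (ENSMUSG00000039728, chromosome 7), the transporter that refills glycinergic terminals, had 402 and 413 reads in KO libraries 1 and 2, against 884 and 987 reads in WT libraries 1 and 2. Scaled to depth this was 4.91 and 5.83 CPM in KO libraries and 11.0 and 12.0 CPM in WT libraries. Every KO value lay below every WT value. The means were 5.37 ± 0.65 CPM in KO and 11.5 ± 0.76 CPM in WT (SD, n = 2 libraries each), a fold of 0.466 (95% interval 0.407 to 0.532). On the log2 scale the change was -1.10 (SE 0.093, adjusted p = 1.07e-08 in edgeR). Of all tested genes, 0.148% were called and at least 2-fold lower. In a bulk sample, fewer cells that transcribe a gene and less of its RNA per cell cannot be told apart.

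Slc6a9 (ENSMUSG00000028542, chromosome 4), the glial and perisynaptic transporter that also feeds glycine to red cell precursors for haem synthesis, had 68.8 and 72.5 CPM in KO libraries and 67.3 and 69.2 CPM in WT libraries. The ranges overlapped. Its log2 fold change was 0.049 (SE 0.032, 95% interval -0.017 to 0.115, edgeR adjusted p = 0.486). As a fold the interval runs from 0.988 to 1.08, and it covers the spread between these libraries only. The gene shares exonic bases with B4galt2 on the opposite strand in the GENCODE M21 annotation. B4galt2 had 73.6 and 70.9 CPM in KO libraries and 67.7 and 68.9 CPM in WT libraries, and without a stated strand setting for the counting, reads of the 2 genes may not be fully separated. Astrocyte markers summed to 5628 and 5611 CPM in KO libraries and to 5762 and 5752 CPM in WT libraries, with 5 of 10 called lower. Slc1a2, which was not called, held 3373 and 3327 CPM of that sum in KO libraries and 3363 and 3369 CPM in WT libraries. Erythroid markers summed to 236 and 227 CPM in KO libraries and to 187 and 201 CPM in WT libraries, with 4 of 5 called higher. The part of astrocytes or erythroid cells in the Slc6a9 value was not tested. Over all genes tested 3.19% were called lower and 3.35% higher.

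The balance of the 2 transporters moved with Slc6a5. Per kilobase of exon, the ratio of Slc6a5 to Slc6a9 was 0.051 and 0.057 in KO libraries and 0.116 and 0.124 in WT libraries. Every KO value lay below every WT value. A test of a single value over 2 libraries against 2 cannot give an exact two-sided permutation p below 0.333, so none is used for such ratios.

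**Figure D2:**
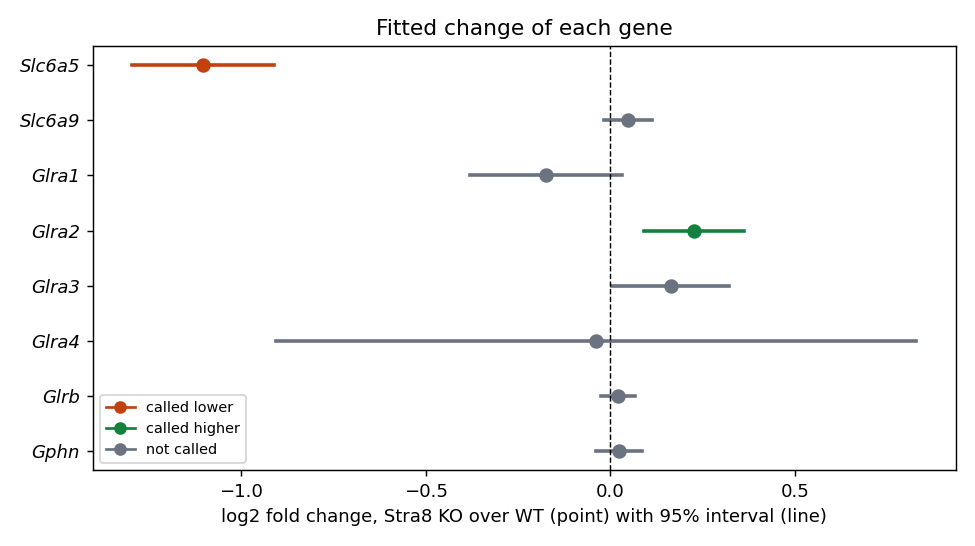
Fitted log2 fold change, Stra8 KO over WT, of each gene (points) with its 95% interval (lines), coloured by whether the gene was called at an adjusted p under 0.05. Slc6a5 at -1.10 stands alone on the left, Glra2 at 0.23 is called higher, and the intervals of Slc6a9, Glrb and Gphn are narrow around 0.

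Among the receptor subunits, Glra2 was the one that passed the test. Glra2 (ENSMUSG00000018589, X chromosome), the alpha subunit that dominates in the immature brain and persists in forebrain, had 1256 and 1156 reads in KO libraries and 1088 and 1111 reads in WT libraries. This was 15.3 and 16.3 CPM in KO libraries and 13.5 and 13.5 CPM in WT libraries, without overlap. KO exceeded WT by 0.23 on the log2 scale (SE 0.065, adjusted p = 0.035 in edgeR), or 1.17-fold (95% interval 1.07 to 1.28). The call was lost with DESeq2 (adjusted p = 0.093) and in edgeR without WT library 1 (adjusted p = 0.131), without WT library 2 (0.110) or without KO library 2 (0.221), while the direction stayed.

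Glra2 and Glra4 are X-linked, and the libraries differed in sex-linked transcripts. Xist, the RNA that silences an X chromosome in females, had 441 and 420 CPM in KO libraries and 297 and 287 CPM in WT libraries, and Y-linked Ddx3y had 11.9 and 11.6 CPM in KO libraries and 27.9 and 28.1 CPM in WT libraries. Every library thus held both. Of 720 X-linked genes tested, 19 were called higher and 10 lower, with a median log2 fold change of 0.014. Of 20737 autosomal genes tested, 699 were called higher and 670 lower, with a median of -0.00087. The part of the sex make-up in the Glra2 value, or in that of Slc6a5 or any other gene, was not tested.

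Glra1 (ENSMUSG00000000263, chromosome 11), the alpha subunit of adult brainstem and spinal cord synapses, had 438 and 362 reads in KO libraries and 469 and 492 reads in WT libraries. Scaled to depth it had 5.35 and 5.11 CPM in KO libraries and 5.81 and 6.00 CPM in WT libraries. The groups did not overlap, but the log2 fold change of -0.17 (SE 0.099, 95% interval -0.38 to 0.031) did not pass (edgeR adjusted p = 0.392). The interval does not reach the change of Slc6a5, whose own interval ended at -0.91.

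Glra3 (ENSMUSG00000038257, chromosome 8), an alpha subunit of dorsal horn and hippocampus, had 12.4 and 13.9 CPM in KO libraries and 11.0 and 12.4 CPM in WT libraries. KO library 1 and WT library 2 had nearly the same level. Its log2 fold change was 0.16 (SE 0.077, 95% interval 0.0037 to 0.32), with an adjusted p of 0.273 in edgeR. The value was 0.085 without WT library 1, 0.25 without WT library 2, 0.25 without KO library 1 and 0.079 without KO library 2, and was not called in any of these.

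Glra4 (ENSMUSG00000018595, X chromosome), the least transcribed subunit, had 26 and 26 reads in KO libraries and 31 and 26 reads in WT libraries. This was 0.318 CPM (95% Poisson interval 0.207 to 0.465) and 0.367 CPM (0.240 to 0.538) in KO libraries, and 0.384 CPM (0.261 to 0.545) and 0.317 CPM (0.207 to 0.464) in WT libraries. These intervals cover counting error only and are too narrow, because 72.8% to 74.3% of counts from 1 to 20 were even, as when both mates of a pair are counted. The log2 fold change of -0.037 had a 95% interval from -0.90 to 0.83, so KO levels from 0.534 to 1.78 times the WT level lie within it, and a difference of that size was not detectable at this depth.

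Glrb (ENSMUSG00000028020, chromosome 3), the beta subunit that anchors the receptor, was the most abundant gene of the set. It had 166 and 158 CPM in KO libraries and 160 and 160 CPM in WT libraries, with the WT values inside the KO range. Its log2 fold change was 0.021 (SE 0.022, 95% interval -0.026 to 0.067, edgeR adjusted p = 0.730). A change of more than 1.05-fold lies outside that interval, which covers the spread between these libraries only.

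Gphn (ENSMUSG00000047454, chromosome 12), the scaffold and also the enzyme of the last steps of molybdenum cofactor synthesis, had 75.2 and 72.0 CPM in KO libraries and 72.3 and 72.4 CPM in WT libraries. The WT values lay inside the KO range. The log2 fold change was 0.025 (SE 0.030, 95% interval -0.037 to 0.087, edgeR adjusted p = 0.759). Its exons overlap those of Gm48226 on the opposite strand, which had 5.94 and 5.97 CPM in KO libraries and 5.93 and 5.71 CPM in WT libraries.

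**Figure D3:**
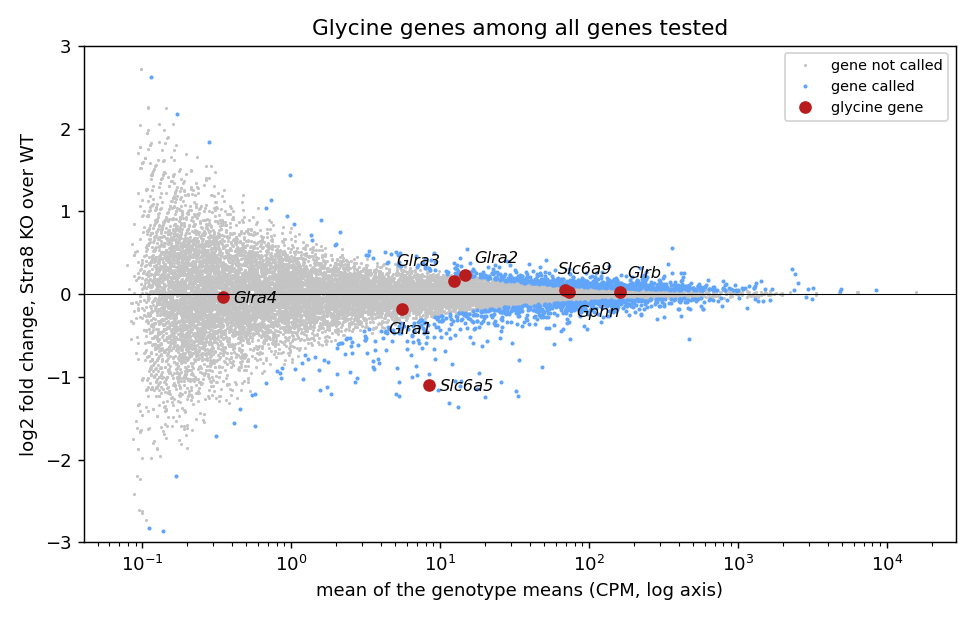
Log2 fold change, Stra8 KO over WT, against mean level (CPM, log axis) for the 21592 genes tested, with called genes in blue and the 8 glycine genes in red. Slc6a5 lies at -1.10 below the bulk of genes of its level and the other 7 lie between -0.17 and 0.23, and 3 genes fall outside the axis limit of 3.

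Levels of different genes were compared per kilobase of exon (union of GENCODE M21 exons). In KO libraries the order was Glrb (34.8 CPM per kb), Gphn (19.6), Slc6a9 (13.7), Glra2 (5.03), Glra1 (2.17), Glra3 (1.43), Slc6a5 (0.746) and Glra4 (0.170). In WT libraries it was Glrb (34.4 CPM per kb), Gphn (19.3), Slc6a9 (13.3), Glra2 (4.29), Glra1 (2.45), Slc6a5 (1.60), Glra3 (1.27) and Glra4 (0.174). Slc6a5 and Glra3 exchange places between the 2 orders. In KO libraries Slc6a5 had 0.682 and 0.809 CPM per kb and Glra3 had 1.34 and 1.51, whereas in WT libraries Slc6a5 had 1.52 and 1.67 and Glra3 had 1.20 and 1.34. No neighbours in either order overlapped between their libraries of that genotype.

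The make-up of the alpha subunits was read the same way. Glra2 held 56.7% and 57.6% of the summed alpha signal per kb in KO libraries and 53.0% and 51.9% in WT libraries. Glra1 held 25.8% and 23.5% in KO libraries and 29.8% and 30.0% in WT libraries. These 2 shares did not overlap between genotypes, as the CPM values of 45.7% of all tested genes did not. The shares of a library add up to a whole, so they do not move independently. Glra3 held 15.6% and 16.8% in KO libraries and 14.8% and 16.2% in WT libraries, and Glra4 between 1.84% and 2.37% in all 4.

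**Figure D4:**
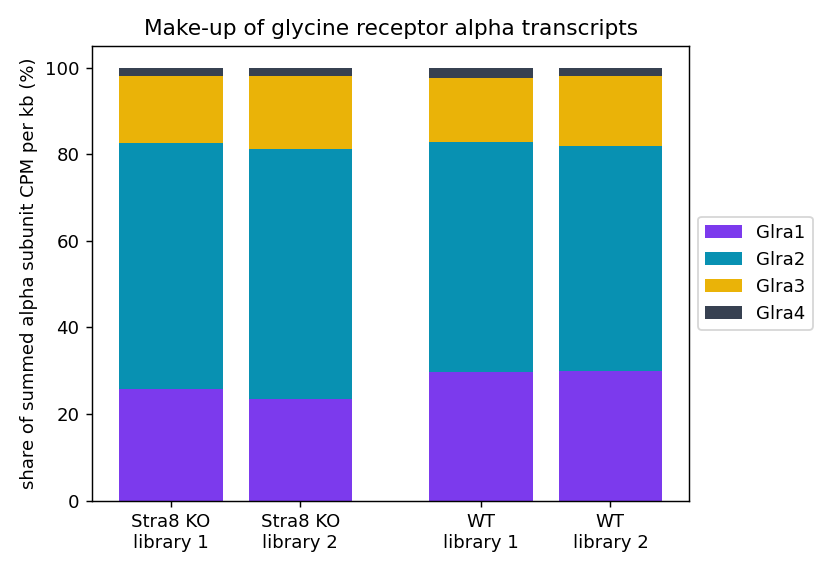
Share (%) of each glycine receptor alpha subunit in the summed alpha CPM per kb of each library, with the 2 Stra8 KO libraries at left and the 2 WT libraries at right. The Glra2 part is 56.7% and 57.6% in KO libraries and 53.0% and 51.9% in WT libraries.

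The summed alpha signal relative to Glrb was 0.241 and 0.264 in KO libraries and 0.235 and 0.242 in WT libraries, which overlap. Gphn relative to Glrb was 0.563 and 0.565 in KO libraries and 0.560 and 0.563 in WT libraries. Both ratios are per kb. The Gphn ratio was almost level across the 4 libraries, unlike the ratio of the 2 transporters, while the alpha ratio differed between the KO libraries. The summed alpha signal itself was 8.59 and 8.99 CPM per kb in KO libraries and 8.08 and 8.29 in WT libraries. It did not overlap between genotypes, as the CPM values of 45.7% of all tested genes did not.

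Slc6a5 was set beside markers of the regions where glycinergic neurons lie. The ratio of its reads to the summed reads of the 18 Hox genes was 3.12 and 3.25 in KO libraries and 2.98 and 3.02 in WT libraries, on Hox sums of 129 and 127 reads in KO libraries and 297 and 327 reads in WT libraries. The mean Hox sum in KO was 0.439 times that in WT, and the fold of Slc6a5 was 0.466. The filter on low counts left 9 of the 18, so the sum is the measure used here. Singly, 0 of these 9 Hox genes were called by edgeR, DESeq2 or limma-trend, and 8 of 9 were lower at an unadjusted edgeR p under 0.05, as were 8.53% of all genes tested. For the 12 cerebellar markers, 11 were called lower, beside 3.19% of all genes tested. Their sum was 292 and 294 CPM in KO libraries and 481 and 489 CPM in WT libraries. Slc6a5 relative to that sum was 0.017 and 0.020 in KO libraries and 0.023 and 0.025 in WT libraries. The part of a differing regional make-up in the fall of Slc6a5 was not tested.

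Marker lists of other regions and cell types differed in direction between KO and WT libraries. Over all genes tested 3.19% were called lower and 3.35% higher. Anterior pituitary markers summed to 29.4 and 29.1 CPM in KO libraries and to 61.5 and 61.8 CPM in WT libraries, with 3 of 4 tested genes called lower. Choroid plexus markers stood at 0.689 times the WT mean with 6 of 7 called lower. Most of that sum was Ttr alone, with 388 and 383 of 439 and 431 CPM in KO libraries. In WT libraries Ttr had 560 and 560 of 631 and 630 CPM. Hippocampal principal neuron markers stood at 0.852 times the WT mean with 10 of 12 called lower. Inhibitory interneuron markers were higher for 3 of 9 genes and lower for 1, and their sum was 1073 and 1072 CPM in KO libraries and 1043 and 1043 CPM in WT libraries. Oligodendrocyte markers were called higher for 7 of 7 genes, with a sum at 1.06 times the WT mean. Of 4 pan-neuronal markers 2 were called higher, with a sum at 1.03 times the WT mean.

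**Figure D5:**
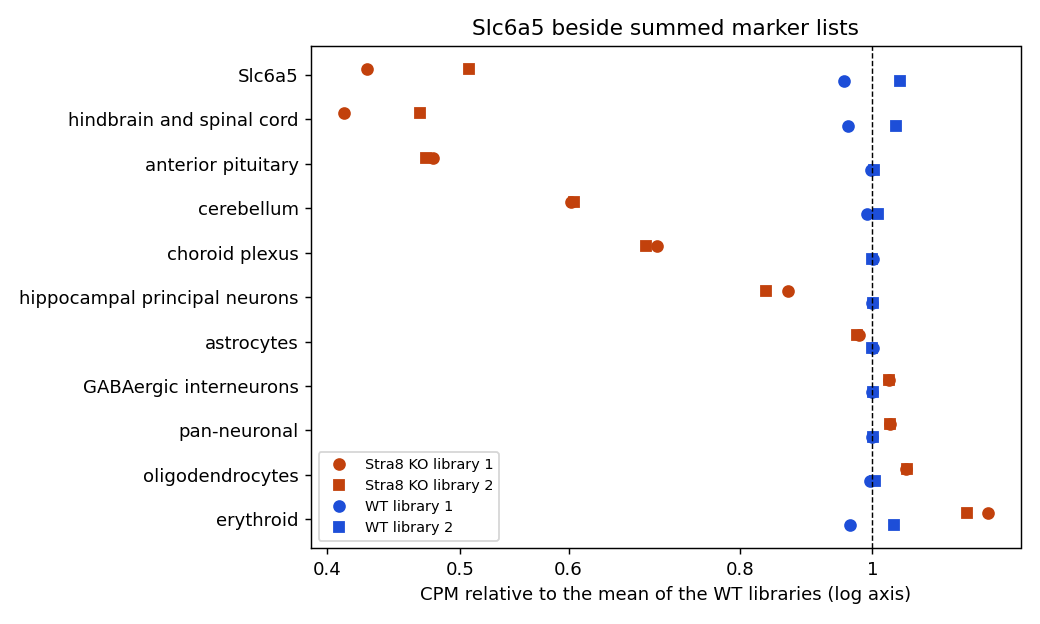
Level of Slc6a5 and summed level of each marker list in every library, divided by the mean of the WT libraries (log axis), with Stra8 KO in orange and WT in blue. The KO mean lies at 0.439 of the WT mean for the hindbrain and spinal cord list and at 0.475 for the anterior pituitary list, near the fitted 0.466 of Slc6a5, while the cerebellum list lies at 0.604 of the WT mean and the inhibitory interneuron list at 1.03.

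Candidates for a pattern like that of Slc6a5 were 13669 tested genes with a mean of at least 1 CPM and a symbol. Genes named by a Gm number, Rik clone or Ensembl identifier were left out. Among the candidates, the genes most like Slc6a5 over the 4 libraries were taken by Euclidean distance between centred log2 CPM. They were Eif2s3y (distance 0.075), a Y-linked translation factor, Plin4 (0.130), a lipid droplet protein, En2 (0.159), a homeobox gene of the midbrain and hindbrain border and cerebellum, Pomc (0.175), the pituitary and hypothalamic peptide precursor, Gabra6 (0.198), the cerebellar granule cell GABA-A subunit, and Fat2 (0.204), a cerebellar cadherin. En2 had 4.51 and 4.88 CPM in KO libraries and 8.74 and 9.71 CPM in WT libraries.

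Around these 8 genes, the enzymes that make and break down glycine did not pass. Of 15 listed genes of synthesis and cleavage 13 passed the filter on low counts, and of these 0 were called by edgeR, DESeq2 or limma-trend, and 2 were lower at an unadjusted edgeR p under 0.05, beside 8.53% of all genes tested. The median log2 fold change was -0.076, beside -0.00038 over all genes tested. Gldc, the decarboxylase of the glycine cleavage system, had 26.7 and 28.9 CPM in KO libraries and 29.9 and 29.0 CPM in WT libraries (edgeR adjusted p = 0.397). The median was -0.105 without WT library 2, -0.114 without KO library 1 and -0.030 without KO library 2.

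Of 13 tested other carriers of glycine and related amino acids 1 rose and 12 did not pass, beside 6.53% of all genes tested called in either direction. The median log2 fold change was 0.040, with 0.0051 when WT library 2 was left out and 0.013 at a minimum count of 50. Slc6a17, a synaptic vesicle transporter of neutral amino acids, rose to 621 and 613 CPM in KO libraries, against 576 and 584 CPM in WT libraries (log2 fold change 0.090, SE 0.014, edgeR adjusted p = 0.000148). Slc32a1, which loads both GABA and glycine into vesicles, had 140 and 138 CPM in KO libraries and 136 and 134 CPM in WT libraries (log2 fold change 0.040, edgeR adjusted p = 0.367).

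A list of gephyrin partners and other synaptic and transport genes had 23 measured genes (24 listed). Not every gene on it, Dlgap1 among them, is an established gephyrin partner. Of the 23 genes 3 rose, 2 fell and 18 did not pass, beside 6.53% of all genes tested called in either direction. The median log2 fold change was 0.020, or 0.032 without KO library 2 and 0.010 with library size alone. The kinesin heavy chains Kif5a and Kif5c, which carry cargo along axons and dendrites, had log2 fold changes of 0.061 and 0.071, and Dynll2, a dynein light chain that binds gephyrin, had 0.086. The calls of Kif5a and Kif5c were lost with counts halved (adjusted p = 0.263 and 0.088 in edgeR). Mdga1, which masks neuroligin 2, fell by 0.115 and Dlgap1, a postsynaptic scaffold protein, fell by 0.051 on the log2 scale. Both of these calls were lost without WT library 1, WT library 2 or KO library 1, and that of Dlgap1 also without KO library 2, with edgeR adjusted p from 0.056 to 0.099.

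Of 10 genes of the molybdenum cofactor pathway, to which gephyrin belongs as an enzyme, 1 fell and 9 did not pass. Over all genes tested 6.53% were called in either direction. Xdh, xanthine dehydrogenase, an enzyme that needs the cofactor, fell to 5.77 and 5.59 CPM in KO libraries, against 11.2 and 10.9 CPM in WT libraries (log2 fold change -0.96, SE 0.084, edgeR adjusted p = 1.80e-08). The median of this list was -0.070, with -0.12 when WT library 2 was left out and -0.036 when KO library 1 was. The cofactor-making genes Mocs1, Mocs2 and Mocs3 had log2 fold changes of -0.044, 0.039 and 0.0033.

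Of 8 genes that set inhibitory transmission more broadly 2 fell and 6 did not pass, beside 6.53% of all genes tested called in either direction. Slc12a2, a chloride importer, fell by 0.094 on the log2 scale, or by 0.050 without WT library 1 (edgeR adjusted p = 0.571), and its call was also lost with DESeq2 (adjusted p = 0.097), with counts halved (0.052) and without KO library 2 (0.081). Slc12a5, the neuronal chloride exporter on which inhibition by glycine depends, had 631 and 627 CPM in KO libraries and 629 and 622 CPM in WT libraries. The median of the list was 0.0078, with 0.015 without WT library 1, and it was below 0 without WT library 2 (-0.0038) and with library size alone (-0.0018).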

How the data were processed

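Bulk messenger RNA was sequenced from 2 Stra8 KO and 2 WT libraries. Per the labels' protocols, TRIzol-extracted RNA was captured on oligo dT beads and made into strand-specific libraries read as pairs. The authors deposited raw counts of reads per Ensembl gene in 1 table. The submitters' processing notes name FastQC, STAR 2.6.1c, featureCounts, DESeq2 and the GRCm39 build, with no role. The annotation release, the strand setting and how multi-mapping reads were handled are not stated there. Columns were matched to samples by title. The headers of the 2 KO columns carried a suffix that their titles and the WT headers lack, and its meaning is not stated. Of 55414 identifiers, 52081 had a symbol in GENCODE M21.

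The count analysis used edgeR 4.0.16 under R 4.3.3: filterByExpr at a minimum count of 10, TMM scaling (factors 0.997 to 1.005), glmQLFit and glmQLFTest by genotype without other terms, and Benjamini-Hochberg adjustment over all 21592 genes tested. The SE of a log2 fold change is its size over the square root of F. Intervals use 95%. Total counts per library (71097417 to 82172740) set the precision. Between libraries of 1 genotype the variance was 2.51 (WT) and 2.58 (KO) times Poisson on reads, or 1.25 and 1.29 times on read pairs. The libraries were thus not identical, but a spread this near Poisson does not tell technical from biological replicates. The procedure was tested on simulated data. The named genes were the 8 members, up to 6 called genes per pathway list by smallest p and the 6 genes most like the called member with the largest change; others named in lists, markers among them, were picked for their role. Some genes of the lists are not reported here. Members and lists were chosen with earlier results of these data known. Alternatives used RLE factors, library size alone, no filter, a minimum count of 50, DESeq2 1.42.0, limma-trend in limma 3.58.1 (prior count 2), a replicate block, counts halved, dispersion 0, an adjusted p under 0.1, and each library left out.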

Additional observations from a re-analysis of the deposited data

How the results depend on the processing

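Slc6a5 was called lower in every alternative run, with log2 fold changes from -1.23 (without KO library 2) to -0.98 (without KO library 1). With 1 library left out, the lone library of a genotype is assumed to vary like the other genotype's. Glra2 kept its direction, at 0.23 with DESeq2 and 0.18 to 0.27 with 1 library left out, and the number of glycine genes called higher was 0 with DESeq2 and 0 to 1 with 1 library left out. Of the 6 uncalled genes 3 changed sign with a library left out, where values ranged from -0.17 to 0.11 for Glra4, from -0.014 to 0.054 for Glrb and from -0.0071 to 0.056 for Gphn. The cause was not tested. Same-numbered libraries of the genotypes showed no strong shared deviation (r = 0.029 over 11909 genes). Such a correlation cannot exclude a pairing with small effects. With the replicate block, 818 genes were higher and 772 lower, against 723 and 688 without it, Slc6a5 was at -1.10 and Glra2 at 0.23, and 1 of the 8 genes was again called lower and 1 higher. DESeq2 called 5 of the 12 hippocampal markers lower, against 10 in edgeR, and 1 of the 8 genes of inhibitory transmission, against 2. Library size alone gave 601 higher and 828 lower. Depth limits Glra4, with at most 31 reads a library.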
